A study of Rattus norvegicus with 6 samples.

Results

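The hypertrophy-linked microRNAs (miRNAs) miR-22 and miR-132 were followed across the left ventricles of diabetic and control rats. They were chosen by assay name, and 2 of the 584 miRNA assays on the array were found, 1 for each of these miRNAs. No assay was found by name for miR-212, the third name, so neither its level nor the ratio of miR-132 to miR-212 is given. The tissue came from 3 OLETF rats, labelled as diabetic, and 3 LETO rats, the strain labelled as the healthy control. OLETF rats become obese and diabetic through inherited variants, so strain, obesity and diabetes cannot be told apart in this design. No agent or transgene is named for either strain, and ages are not given in the sources used here. The labels do not say that replicates came from separate litters or days, so p-values measure the spread between these 6 samples only.

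miRNAs are short RNAs that guide a silencing complex to messenger RNAs, mainly through a seed of bases 2 to 8 at their 5′ end. miR-22 is abundant in heart and skeletal muscle, and in mice its loss blunts hypertrophic growth of the heart under stress. miR-132 and miR-212 are made from 1 transcript unit that responds to the transcription factor CREB. In mice, deletion of that unit protects the heart from hypertrophy under pressure overload and its overexpression enlarges the heart, with the growth-restraining factor FoxO3 among its targets.

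The mature rat sequences are shown because they separate these miRNAs into seed families. They were taken from RefSeq on the GRCr8 build, all on the plus strand of chromosome 10, and the capitals mark the seed. The assays are named for the mouse miRNAs, the file gives no assay sequence, and the names without an arm were read as the 3p arm.

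miR-22-3p: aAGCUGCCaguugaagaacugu
miR-22-5p: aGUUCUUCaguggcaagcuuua
miR-132-3p: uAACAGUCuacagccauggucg
miR-212-3p: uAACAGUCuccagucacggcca

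miR-132-3p and miR-212-3p had the same seed, which no other of the 693 mature rat miRNA names in the table shared. Aligned without gaps from the 5′ end, they were identical at 17 of 22 positions. Counted from 1 at the 5′ end of miR-132-3p, the differences were A10C, C14U, U17C, U20C and G22A, all outside the seed. The seed of miR-22-3p was shared by no other name in the table, nor was that of miR-22-5p, the passenger strand that the array calls miR-22*. The mature miR-22-3p lies at chr10:60805387-60805408, miR-22-5p at chr10:60805349-60805370, miR-132-3p at chr10:60522091-60522112 and miR-212-3p at chr10:60521811-60521832. The Mir132 hairpin stands 182 bases from Mir212, and 283 kilobases with 14 annotated genes, 9 of them protein-coding, separate it from Mir22. No other gene of the table overlaps any of the hairpins, so each is intergenic in that annotation.

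Every well of both miRNAs amplified in every heart. The array reports a threshold cycle (Ct), the PCR cycle at which a well crosses its detection level, so that a lower Ct means more RNA. miR-22 was read in 2 wells on the second card, called card B, and miR-132 in 1 well on card A. Of the wells of miR-22, 12 of 12 were determined, with Ct from 23.7 to 28.9, and of miR-132 6 of 6, with Ct from 28.1 to 30.4. Both stayed below the Ct limit of 35, which was used to call an assay measured, in all 6 samples, as did 162 of the 584 assays. The wells of miR-22 differed by 0.00859 to 0.468 cycles within a sample. The SD of a single miR-22 well was 0.201 cycles (6 pairs), against 0.486 cycles over 189 pairs of measured wells of all duplicated assays.

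Some features of the whole data set touch these values. In all, 197 to 228 assays were measured in OLETF samples and 202 to 292 in LETO samples, with LETO replicate 3 the highest. That sample also had the lowest median Ct of the assays measured throughout, 26.5 on card A and 27.7 on card B, so the differences are also given without it. The U6 small nuclear RNA, the endogenous control named by the labels, had overlapping Ct values in the strains, on card B 17.2 ± 0.549 in OLETF and 17.3 ± 1.03 in LETO (exact permutation p = 1, SD, n = 3 each), and on card A 17.9 ± 0.290 in OLETF and 18.2 ± 0.908 in LETO (exact permutation p = 0.9). The heart muscle markers had 7 of 7 assays measured in all samples, and their summed level relative to U6 ran from 0.20 to 0.99 log2 units in OLETF and from 0.046 to 1.48 in LETO. miR-133a, at a mean of 0.67 with the next assay at -4.48, carried that sum. Assay by assay, 7 of 7 lay lower in OLETF with either reference, and none passed the test (limma, smallest adjusted p = 0.622). Their median change was -0.54 relative to U6, beside -0.60 over all tested assays, of which 156 of 193 (80.8%) lay lower. Relative to the median of the card it was -0.34, beside -0.31 over all tested assays, of which 130 of 193 (67.4%) lay lower. With LETO replicate 3 left out, 3 of 7 lay lower relative to U6 (median 0.18) and 7 of 7 relative to the card median (median -0.57). The medians over all tested assays were then 0.38 and -0.26. The part of the heart muscle markers in the differences of miR-22 and miR-132 was not tested. Of the neuronal markers, which matter here because miR-132 is also abundant in neurons, 3 of 7 assays could be tested. Their summed level ran from -12.11 to -9.46 in OLETF and from -12.50 to -9.11 in LETO. miR-9 and miR-138 were measured in 3 OLETF and 3 LETO samples, and miR-128a in 3 and 2. miR-137 was measured in 1 and 1 and miR-129-3p in 0 and 1, while miR-219 and neuron-specific miR-124 were measured in 0 samples. The mean level of miR-138 was -11.38 relative to U6. In bulk tissue, fewer cells of a type and less RNA per cell cannot be told apart.

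miR-22 lay lower in OLETF than in LETO on average, but not beyond the spread between hearts. Relative to U6 on the log2 scale, its level was -11.86, -11.54 and -9.29 in OLETF replicates 1, 2 and 3, against -9.48, -12.41 and -5.75 in LETO replicates 1, 2 and 3. The OLETF values lay inside the range of the LETO values, which held both the lowest heart and the highest. The means were -10.90 ± 1.40 in OLETF and -9.21 ± 3.34 in LETO (SD, n = 3 each). The difference was -1.68 (SE 1.38, limma adjusted p = 0.997, two-sided exact permutation p = 0.7), or 0.312 of the LETO level. No assay passed an adjusted p of 0.05 in that fit (limma, 0 of 193, 0%; 2 at an unadjusted p under 0.05, 1.04%). In limma the SE was pooled over all assays, whole samples having moved together, and is not that of miR-22, whose ordinary per-assay SE was 2.09. Card B as a whole lay lower, with a median change of -1.12 over its 53 tested assays, and 11 of the 192 other tested assays on both cards (5.73%) changed by as much downward as miR-22. Without LETO replicate 3 the difference was 0.053.

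miR-132 lay higher in OLETF on average, again within the spread. Relative to U6 its level was -11.50, -11.59 and -9.85 in OLETF replicates 1, 2 and 3, against -11.23, -12.63 and -10.26 in LETO replicates 1, 2 and 3. The highest heart was an OLETF heart and the lowest a LETO heart, with the others interleaved. The means were -10.98 ± 0.977 in OLETF and -11.37 ± 1.19 in LETO, a difference of 0.39 (SD, n = 3 each; SE 1.38, limma adjusted p = 0.997, exact permutation p = 0.7), or 1.31 times the LETO level. The ordinary per-assay SE of miR-132 was 0.890, below the pooled one. On the U6 scale 156 of 193 tested assays (80.8%) lay lower in OLETF, and 15 of the 192 others (7.81%) changed by as much upward as miR-132. The direction rested on single hearts: the difference was -0.17 without OLETF replicate 3 and -0.24 without LETO replicate 2.

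**Figure D1:**
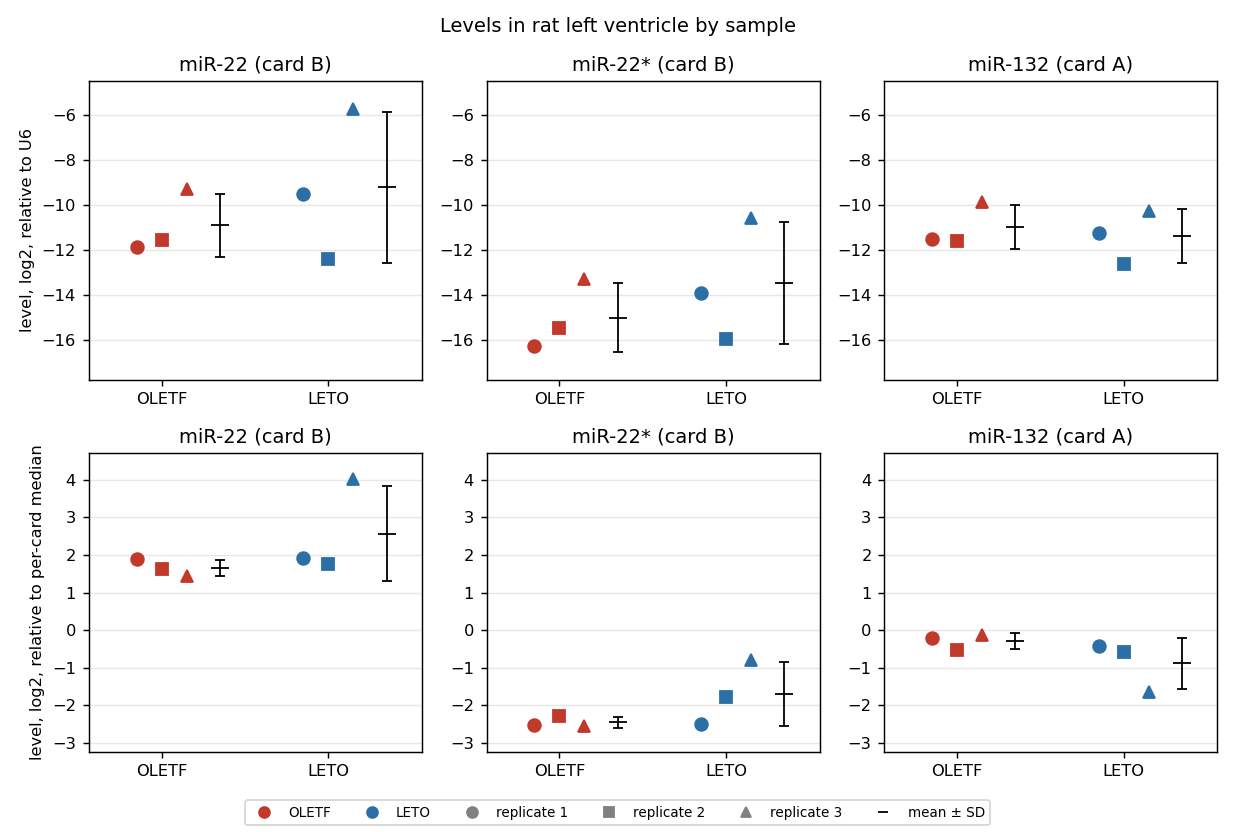
Levels of miR-22, its passenger strand miR-22* and miR-132 (y axes, log2 units, relative to U6 in the upper row and to the median of the card in the lower row) in each OLETF and LETO sample, with the mean and SD of each group. LETO replicate 3 stands at 4.03 for miR-22 and at -1.65 for miR-132 relative to the card median, apart from the other 5 samples in both.

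A median reference removes what all assays of a card share in a sample. Relative to the median of the card, miR-22 lay at 1.89, 1.62 and 1.45 in OLETF replicates 1, 2 and 3, against 1.92, 1.77 and 4.03 in LETO replicates 1, 2 and 3. All hearts but LETO replicate 3 fell within a narrow band, and the groups overlapped by 1 pair of 9. The means were 1.66 ± 0.222 in OLETF and 2.57 ± 1.26 in LETO, a difference of -0.92 (SD, n = 3 each; SE 0.606, limma adjusted p = 0.632, exact permutation p = 0.2). Of the 192 other tested assays, 19 (9.9%) changed by as much downward on this scale. Without LETO replicate 3 the difference was -0.19 (SE 0.289).

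For miR-132 the same reference gave -0.21, -0.52 and -0.12 in OLETF replicates 1, 2 and 3, against -0.41, -0.57 and -1.65 in LETO replicates 1, 2 and 3. Here LETO replicate 3 was the lowest heart, the opposite of its place for miR-22. The means were -0.28 ± 0.214 in OLETF and -0.88 ± 0.673 in LETO, a difference of 0.59 (SD, n = 3 each; SE 0.433, limma adjusted p = 0.634, exact permutation p = 0.2), higher in OLETF in 8 of 9 pairs. Of the 192 others, 16 (8.33%) changed by as much upward. Without LETO replicate 3 it was 0.21 (SE 0.287). Between replicates 1 and 2 of each strain alone, the differences relative to the card median were -0.086 for miR-22 and 0.12 for miR-132.

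The median of both cards together gave groups that did not overlap for either miRNA. On that scale miR-22 lay at 0.61, 0.94 and 1.15 in OLETF replicates 1, 2 and 3, against 2.71, 1.30 and 2.97 in LETO replicates 1, 2 and 3. Every OLETF heart was below every LETO heart, a difference of -1.42 (SE 0.520, limma p = 0.0213, adjusted p = 0.401, exact permutation p = 0.1, the smallest that 3 against 3 samples allow). In that fit 0 of 193 assays passed the adjusted threshold (limma, 0%) and 17 had an unadjusted p under 0.05 (8.81%). miR-132 lay at 0.30, -0.18 and 0.23 in OLETF replicates 1, 2 and 3, against -0.51, -0.30 and -1.48 in LETO replicates 1, 2 and 3. Every OLETF heart was above every LETO heart, a difference of 0.88 (SE 0.463, limma adjusted p = 0.487, exact permutation p = 0.1). Of the 162 assays measured in all samples, 12 lay lower in OLETF without overlap (7.41%) and 12 higher (7.41%), and with the card median 15 lay lower (9.26%) and 7 higher (4.32%), neither miRNA among them. With the U6 reference 0 of 162 did in either direction (0%). On the scale of the common median and without LETO replicate 3, the differences were -1.10 for miR-22 (SE 0.501, limma adjusted p = 0.296) and 0.52 for miR-132 (SE 0.380, adjusted p = 0.528). The cards differed on the common median: its median change was -0.00011 for the assays of card A, which holds miR-132, and -0.93 for those of card B, which holds miR-22.

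Ranks need no reference. Among the 40 assays of card B measured in all samples, counted from the most abundant, miR-22 ranked 8, 11 and 12 in OLETF replicates 1, 2 and 3, and 9, 10 and 7 in LETO replicates 1, 2 and 3 (exact permutation p = 0.4). It was thus among the more abundant of these assays in each heart, with overlapping groups. Among the 122 such assays of card A, miR-132 ranked 64, 69 and 62 in OLETF and 72, 69 and 92 in LETO (exact permutation p = 0.2), near the middle in all hearts but LETO replicate 3.

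miR-22* was read beside miR-22 on the same card and comes from the same hairpin, so the ratio of the strands needs no reference. miR-22* had Ct from 28.4 to 33.4, with 12 of 12 wells determined. miR-22 came up earlier than miR-22* by 4.40, 3.89 and 3.997 cycles in OLETF replicates 1, 2 and 3, against 4.40, 3.54 and 4.82 cycles in LETO replicates 1, 2 and 3. The guide strand gave the stronger signal in all 6 hearts, and the groups overlapped. The means were 4.10 ± 0.269 cycles in OLETF and 4.25 ± 0.655 cycles in LETO (SD, n = 3 each), a difference of -0.16 (exact permutation p = 0.7), which was 0.13 without LETO replicate 3. The cycles come from assays with their own amplification efficiencies, so they do not give a ratio of molecules. As a level relative to U6, miR-22* differed by -1.53 (SE 1.38, limma adjusted p = 0.997), and relative to the card median by -0.76 (SE 0.476, adjusted p = 0.632), beside -1.68 and -0.92 for miR-22.

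The lead of miR-22 over miR-132 was smaller in OLETF than in LETO on average, and its size changed with the way the cards were joined. As raw Ct, miR-22 came up earlier than miR-132 by 0.31, 1.13 and 0.92 cycles in OLETF replicates 1, 2 and 3, against 3.22, 1.60 and 4.44 cycles in LETO replicates 1, 2 and 3. Each OLETF heart had a smaller lead than any LETO heart. The means were 0.79 ± 0.422 cycles in OLETF and 3.09 ± 1.42 cycles in LETO, a difference of -2.30 (SD, n = 3 each; exact permutation p = 0.1, the smallest possible). That is a difference between cards as well as between miRNAs: of the other 39 card B assays measured in all samples, 25 (64.1%) likewise lay lower against miR-132 in every OLETF heart, and 5 (12.8%) by at least as much as miR-22. The median Ct of card B minus that of card A was 1.79, 1.02 and 0.64 cycles in OLETF replicates 1, 2 and 3, and -0.90, 0.74 and 1.23 cycles in LETO replicates 1, 2 and 3.

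With each miRNA set against the U6 wells of its own card, the log2 ratio of miR-22 to miR-132 was -0.36, 0.050 and 0.56 in OLETF replicates 1, 2 and 3, against 1.745, 0.21 and 4.51 in LETO replicates 1, 2 and 3. LETO replicate 2 fell among the OLETF hearts, and the difference was -2.07 (0.084 ± 0.463 in OLETF and 2.16 ± 2.18 in LETO, SD, n = 3 each; exact permutation p = 0.2). On this scale 12 of the other 39 card B assays (30.8%) lay lower against miR-132 without overlap. With the card medians the ratio was 2.10, 2.14 and 1.57 in OLETF, against 2.33, 2.34 and 5.67 in LETO, a difference of -1.51 (exact permutation p = 0.1). The groups were then apart by less than the 0.486-cycle SD of a single well, and 15 of the other 39 card B assays (38.5%) lay lower against miR-132 in the same way. Without LETO replicate 3 the difference was -1.62 as raw Ct, -0.90 with U6 and -0.39 with the card medians. As 1 pair of miRNAs could be compared, no adjustment over pairs was made.

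**Figure D2:**
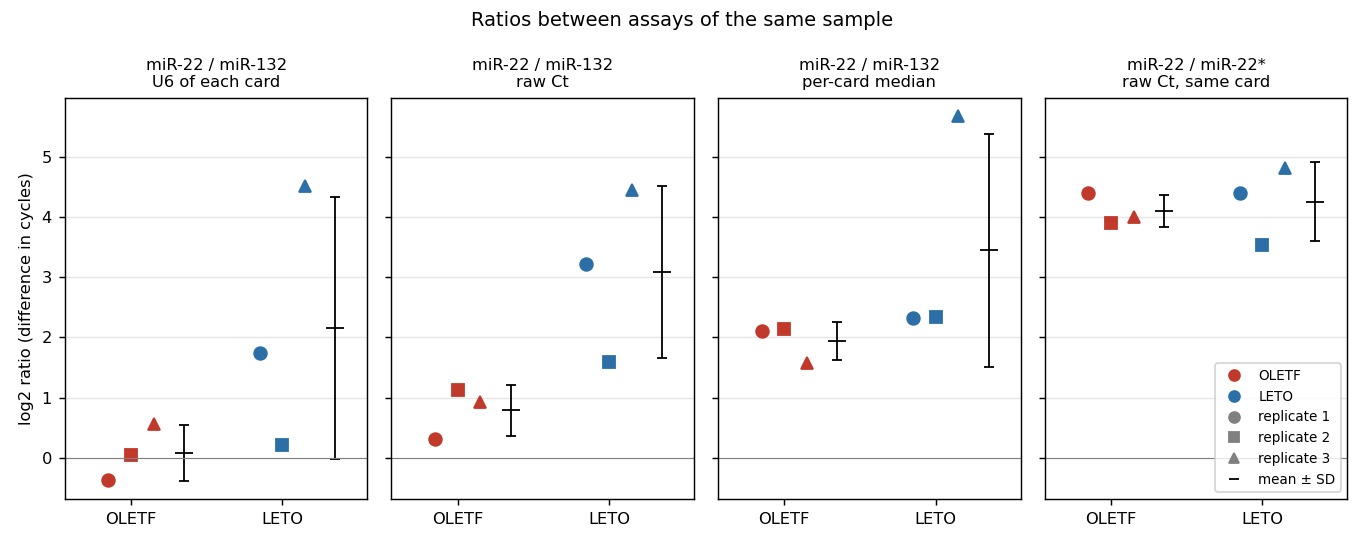
Log2 ratio of miR-22 to miR-132 with 3 ways of joining the cards, and of miR-22 to miR-22* on the same card (y axis, difference in cycles), in each OLETF and LETO sample, with the mean and SD. The OLETF samples lie below the LETO samples with raw Ct (0.79 ± 0.422 and 3.09 ± 1.42) and overlap them for the 2 strands of miR-22.

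The authors' deposited table of ratios listed OLETF over LETO at 0.289 and 0.336 for the wells of miR-22, at 1.31 for miR-132, and at 0.309 and 0.391 for the wells of miR-22*. It carries no error. The deposited delta Ct of these 3 assays and the values recomputed from Ct differed by at most 2.75e-06 cycles.

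The assays with the most similar course over the 6 hearts were found by the root mean square (RMS) difference between levels after each assay was centred on its own mean. For miR-22 they were miR-29a* (0.352 log2 units), miR-22* (0.416) and miR-29c* (0.444), against a median of 0.910 over the 161 other assays measured in all samples. miR-29a* and miR-29c* are passenger strands of the miR-29 family, whose guide strands target collagen messenger RNAs. All 3 lay highest in LETO replicate 3, and without that sample they took places 24, 54 and 84 of 161. miR-132 stood at place 139 by likeness to miR-22, with an RMS difference of 1.36. That distance rested on LETO replicate 3: with the sample left out it was 0.280, at place 40 and nearer than miR-22* (0.329).

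For miR-132 the nearest were miR-222 (0.114 log2 units), miR-23b (0.190) and miR-17 (0.199), against a median of 0.748. miR-222 is known for targeting the cell cycle inhibitor p27, miR-23b is made from a cluster with miR-27b, and miR-17 belongs to the miR-17-92 cluster. Relative to the card median, miR-222 lay at 3.31, 3.24 and 3.75 in OLETF replicates 1, 2 and 3, against 3.25, 3.25 and 2.11 in LETO replicates 1, 2 and 3. As with miR-132, LETO replicate 3 was the lowest heart and the other 5 lay close together. Without that sample miR-222 was still the nearest (0.124), while miR-23b and miR-17 took places 10 and 12. These assays share the card of the miRNA they resemble, and the order was chosen from these values, so it is a description only.

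**Figure D3:**
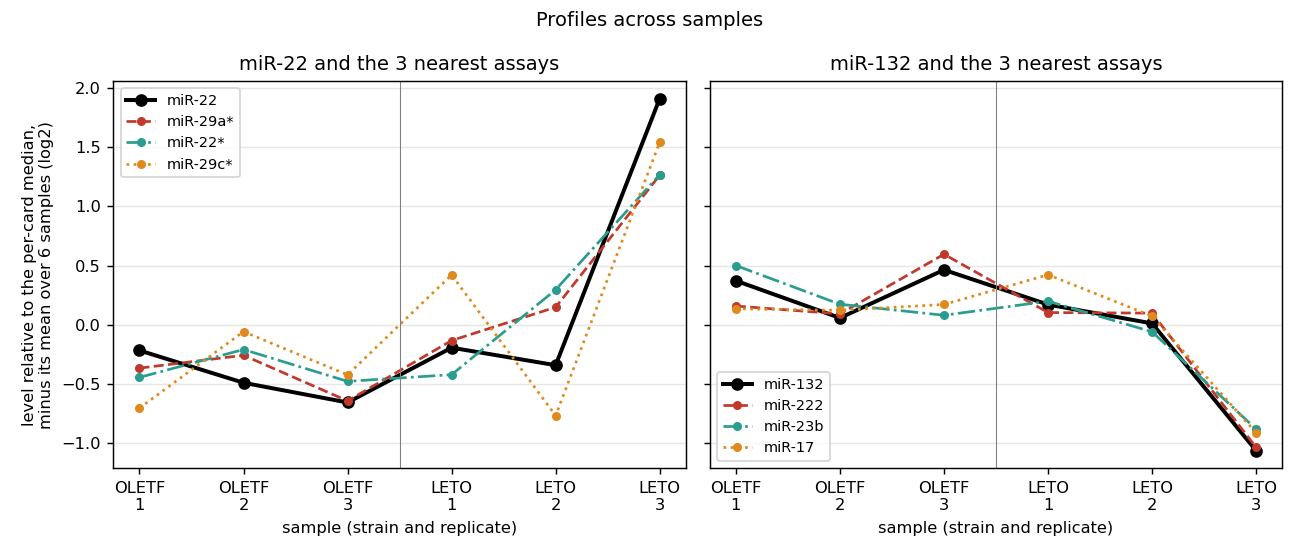
Levels of miR-22 (left) and miR-132 (right) with the 3 nearest assays of each (y axis, log2 relative to the card median, minus the mean over 6 samples) in each OLETF and LETO sample. The lines only join the points of an assay, and LETO replicate 3 is the highest sample for miR-22 and the lowest for miR-132.

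Most other miRNAs reported to promote or to restrain growth of heart muscle cells lay lower in OLETF relative to U6, as most assays did, and none passed the test. Of 13 promoting names, 12 had an assay and 10 were tested. Relative to U6, 9 lay lower in OLETF and 1 higher, with a median change of -0.71, beside -0.60 over all 193 tested assays and -0.49 over card A. Of 14 restraining names, measured by 15 assays with a mouse and a rat assay for miR-1, 14 assays were tested. All 14 lay lower, also with a median of -0.71. Of all tested assays, 156 of 193 (80.8%) lay lower relative to U6. Without LETO replicate 3 the medians were 0.25 for the promoting and 0.23 for the restraining list, beside 0.38 over all tested assays. With the card median, 9 of 10 promoting and 13 of 14 restraining assays lay lower, with medians of -0.51 and -0.41, beside -0.31 over all tested assays, of which 130 (67.4%) lay lower. No member of either list passed an adjusted p of 0.05 with either reference (limma, smallest adjusted p = 0.622).

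Among the promoting list, the highest levels were those of miR-195, of the growth-arresting miR-15 family, and miR-19b, of the miR-17-92 cluster. They differed by -0.60 and -1.11 relative to U6 (SE 1.38 each, limma adjusted p = 0.997). Relative to U6, the smallest p-values there were those of miR-23a, a target gene of the hypertrophy factor NFATc3, at -1.45, and of the p53 target miR-34a, at -1.31. Among the restraining list, muscle-specific miR-133a (-0.43) and miR-150 (-0.012), abundant in lymphocytes, had the highest levels. miR-101b (-1.34) and the mouse miR-1 assay (-1.31), for a muscle miRNA, had the smallest p-values. The rat miR-1 assay differed by -0.75, with a mean level of -4.48 relative to U6 against -8.36 for the mouse assay. The value of miR-132, 0.39, was thus above those of all tested members of either list except miR-155 (0.69), an miRNA induced in inflammation, while that of miR-22, -1.68, was below all of them. Of the tested list members only miR-378 and miR-101b were on card B with miR-22. The median change relative to U6 was -1.12 on card B and -0.49 on card A. With the card median miR-155 was again the 1 assay of 24 above miR-132, but 4 lay below miR-22 (-0.92), namely miR-23a (-1.25), miR-34a (-1.11), the mouse miR-1 assay (-1.11) and miR-9 (-0.94). The rat miR-1 assay, at -0.54, was not among them. None of these differences passed the test.

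**Figure D4:**
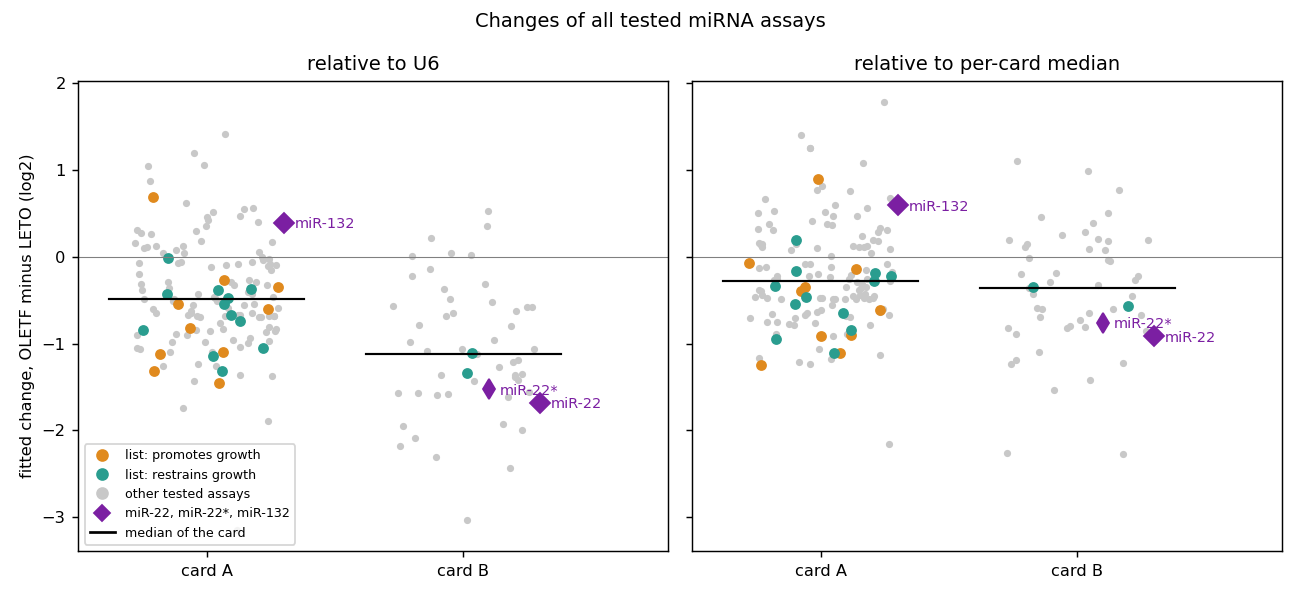
Fitted changes, OLETF minus LETO (y axis, log2), of the 193 tested assays on card A and card B, relative to U6 (left) and to the card median (right). Points are assays, spread sideways at random, and lines are card medians. miR-132 lies above and miR-22 and miR-22* below the median of their card with both references.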

How the data were processed

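Ct values of 768 wells per sample, 2 cards of 384 rows, came from stem-loop reverse transcription and PCR on TaqMan rodent cards, per the labels' protocols. Baseline and threshold settings are not given in the sources used here. The authors' normalized table held delta Ct against U6, deposited as log2 values of which a lower one means more RNA. Their table of fold changes held a linear ratio, OLETF over LETO, per well, per the file headers. From the deposited Ct table, determined wells of an assay were averaged. A level was the U6 Ct minus the assay Ct on the same card, and a mean Ct of 35 or more was treated as not measured. Assays measured in at least 2 of 3 samples per group (193 of 584) were compared with limma 3.58.1 in R 4.3.3 (lmFit and eBayes, two-sided, Benjamini-Hochberg). The script was first tested on simulated data with independent noise and larger changes than those of miR-22 and miR-132. That test does not show how the fit performs where whole samples move together. Exact permutation tests of single values were two-sided and run in Python 3.11.15. Groups came from the sample titles.

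The members and lists were chosen with earlier results of these data known. Named were both miRNAs, the other strand of their hairpins, the 3 assays nearest to each, and from each hypertrophy list the 2 most abundant and the 2 of smallest p relative to U6. miR-155, miR-499 and miR-101a were named after their values were seen. Alternatives were other references, Ct limits, filters, blocks, weights and samples left out. The labels' sample names number the LETO hearts 2 to 4 and the OLETF hearts 1 to 3, unlike the replicate numbers 1 to 3. Planned values of miR-212 are not given, as no assay was found for it.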

Additional observations from a re-analysis of the deposited data

How the results depend on the processing

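The count of assays past adjusted p 0.05 (limma) was 0 in 29 of 32 alternatives. It was 1 under the replicate block, 1 when replicate 3 formed a batch block, and 30 under array weights, of 193 tested assays in each, for causes not tested. The labels do not say that a replicate number is a shared litter, day or plate, so the numbers were not used to pair samples. Deviations of same-numbered samples correlated at -0.088, 0.23 and 0.62 (numbers 1, 2 and 3). Under the replicate block miR-22 was at -1.68 (limma adjusted p = 0.682) and miR-132 at 0.39 (adjusted p = 0.851). miR-22 was lower in OLETF in 31 of 32 alternatives. Array weights were 3.25, 3.7 and 0.354 for OLETF replicates 1, 2 and 3, and 3.02, 0.329 and 0.237 for LETO replicates 1, 2 and 3. The weighted LETO mean thus rested mostly on LETO replicate 1. With the weights miR-22 was at -2.07 (limma adjusted p = 0.0302), beside a median change of -1.77 on card B and -0.97 over all tested assays. Its adjusted p ran from there to 1.00 over the alternatives. Against the other small RNA controls miR-22 was at -0.18. Leaving out 1 sample moved it between -3.28 and 0.053. miR-132 was higher in 29 of 32 alternatives, up to 1.24 against the other small RNA controls, but -0.17 under array weights and between -0.24 and 0.95 when a sample was left out. The ratio of miR-22 to miR-132 was below 0 in all 32 alternatives run for it, from -3.04 to -0.21, with exact permutation p of 0.1 to 0.5. The smallest possible p was 0.1 for 3 against 3 samples and 0.333 for 2 against 2. The alternatives for miR-22, miR-132 and their ratio drew on the same 6 hearts, and several repeat the main value, so they are not independent. The ratio of miR-22 to miR-132 was -2.07 under the replicate block and was not run with weights or the batch block. That of miR-22 to miR-22* was 0.18 between replicates 1 and 2, and between -0.51 and 0.13 when a sample was left out. The median change of all assays lay between -1.57 and 0.38 when a sample was left out, above 0 without LETO replicate 3, and was 0.37 against the other small RNA controls. Leaving out a sample moved the U6 difference between -0.61 and 0.26 (card A) or 0.33 (card B). Against the other small RNA controls the sign turned for miR-195 (0.25), miR-133a (0.42), miR-150 (0.84) and miR-101b (0.17). Without LETO replicate 3 and with the whole-array median, miR-195 was at 0.27. The whole-array median over all samples turned the sign for miR-133a (0.058) and miR-150 (0.47). For miR-150 the per-card median (0.19, also blocked or over assays measured in all samples), U6 pooled over the cards (0.10), quantile normalization (0.27) and replicates 1 and 2 (0.11) did so too. Left-out samples gave -1.59 to 0.69 for miR-195, -2.30 to 0.33 for miR-19b and -0.36 to 0.29 for miR-150. Under the per-card median they turned miR-133a to 0.034 (OLETF replicate 3 out), 0.18 and 0.11 (LETO replicates 1 and 2), and miR-150 to 0.11 and 0.49 (OLETF replicates 2 and 3) and 0.40 and 0.62 (LETO replicates 1 and 2). The whole-array median without LETO replicate 3, the per-card median within replicates 1 and 2, blocked or over assays measured in all samples, and all alternatives for both ratios and for U6, were chosen after seeing the data. Precision of a single well limits differences of under about 0.486 cycles.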
